A study of Mus musculus with 12 samples.

Results

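Mouse genes named Zfp followed by a number were examined during the passage from naive embryonic stem cells (ESCs) to epiblast-like cells (EpiLCs), at the level of messenger RNA (mRNA) and of ribosome protected footprints (RPFs). The counts table held 365 genes with such a symbol once Zfp42, itself a marker of naive ESCs, was left out. Of these, 305 reached 3 CPM (counts scaled to the total of each library) in at least 3 of the 12 libraries and were thus selected on their measured levels, without regard to any difference between groups. They were 305 of the 11750 genes of the whole table that reached the same minimum. The remaining 60 did not, and 13 of those had no count in any library. Just outside the minimum were Zfp994, whose third-highest library stood at 2.84 CPM, and Zfp536, at 2.93 CPM. Just inside were Zfp273, at 3.18 CPM, and Zfp963, at 3.27 CPM. Because the minimum was set on the measured levels, a gene that passed through 1 cell type alone had to differ between the cell types, so counts and medians over the 305 genes are given as description. In 14 such genes no library of the other cell type reached 3 CPM. Of these, 6 reached it only in ESC libraries (Zfp59, Zfp78, Zfp773, Zfp820, Zfp931 and Zfp991). The other 8 did so only in EpiLC libraries (Zfp287, Zfp467, Zfp618, Zfp677, Zfp697, Zfp711, Zfp768 and Zfp853). Genes with fewer than 3 libraries at 3 CPM in 1 cell type also needed the other cell type to pass. Among them Zfp600 needed the ESC libraries, and Zfp608, Zfp521 and Zfp36 needed the EpiLC libraries. In the same way 21 genes passed only through total RNA libraries and 1 only through RPF libraries, which favours low ratios of RPFs to total RNA. For genes so selected, changes along that line are given as values with no p. A further 204 genes reached it in all 12 libraries.

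Zinc finger proteins of the Cys2His2 type fold short peptide loops around a zinc ion, and tandem arrays of such fingers, joined by a conserved linker, read DNA sequence. Many carry a KRAB box, which recruits the corepressor TRIM28 and, through it, histone methylation and silencing, and these proteins are best known in early embryonic cells for repressing retroelements and protecting genomic imprints. The KRAB genes arose largely by tandem duplication and lie in clusters of similar copies, while other Zfp genes without the box act in development, in chromatin complexes or on RNA.

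The libraries came from mouse ESCs cultured in serum, LIF and the 2 inhibitors PD0325901 and CHIR99021 (2i), and from EpiLCs collected about 56 hours after LIF and 2i were taken away. The study's methods name a V6.5 line with miR290-mCherry and miR302-GFP reporters for this differentiation, so the results describe 1 cell line in culture. Each cell type gave 3 RPF libraries, which report ribosome positions, and 3 total RNA libraries. The labels number the replicates but do not say how the cultures were separated, while the paper calls them biological replicates. The p-values measure the spread between these libraries of 1 cell line. All of the naive markers listed (Zfp42, Esrrb, Klf4, Tbx3 and Nr0b1) fell in EpiLC total RNA, with log2 fold changes of -5.52 to -3.45, and the primed markers Dnmt3b, Otx2, Fgf5 and Pou3f1 rose by 2.98 to 5.76. Of the factors shared by both states, Pou5f1 changed by -0.65, within the fold limit, and Sox2 fell by 2.72. A set of 11 markers of endoderm, mesoderm, neural cells and fibroblasts together made 15.3 to 25.4 CPM in the ESC libraries and 33.7 to 68.6 CPM in the EpiLC libraries. Pax6, Col1a1 and Thy1 rose among them, while Gata6, Sox17 and Foxa2 stayed at or below 2.40 CPM in every library. In bulk cultures, fewer cells of a type and less RNA per cell cannot be told apart. Total counts ran from 6188838 to 14655015 for total RNA and from 2681439 to 11359352 for RPFs, so that 3 counts stood for 0.205 to 1.12 CPM.

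The genes resemble each other in the linker between fingers. Only reads with a single place in the genome were kept, so reads from sequence present at several places were lost. Over the 305 genes a median of 98.5% of 28-nucleotide windows of the coding sequence occurred at a single place among transcripts. The windows below are 28 nucleotides long, about the length of an RPF, and are centred on the first linker of each gene that encodes the usual linker motif. They come from the Gencode M21 transcripts, with positions in the GRCm38 assembly (the same as mm10), and are shown 5′ to 3′ on the coding strand with the 15 linker bases in capitals. The first 5 belong to a cluster on chromosome 4, and the last 3 to genes on chromosome 7.
Zfp600, chr4:146195577-146195604, plus strand: attcatACAGGAGAGAAACCTtacaaat
Zfp979, chr4:147613140-147613167, minus strand: attcatACAGGAGAGAAACCTtacaaat
Zfp990, chr4:145537382-145537409, plus strand: attcatACAGGAGAGAAACCGtacaaat
Zfp981, chr4:146537397-146537424, plus strand: attcatACGGGAGAGAAACCTtacaaat
Zfp933, chr4:147826825-147826852, minus strand: attcatACTGGAGAGAAACCCtatgaag
Zfp974, chr7:27911914-27911941, minus strand: attcatACTGGAGAGAAGCCCtatgaat
Zfp568, chr7:30022949-30022976, plus strand: atccacACTGGGGAGAAGCCTcacaagt
Zfp819, chr7:43617391-43617418, plus strand: tttcacACAGGGGAGAAGCCCtatgagt
The windows of Zfp600 and Zfp979 were identical, and this window was the first linker window of 13 of the genes, 10 of them in the chromosome 4 cluster. A linker was found in 234 of the 305 genes. In 77 of these (32.9%) the first window also occurred at another place among the transcripts, in the same gene or another. The windows of Zfp981, Zfp568 and Zfp819 occurred at no other place. A window at a single place is called found once below.

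The promoters in the chromosome 4 cluster also resembled each other. The RefSeq promoter entries run from 250 bases before to 50 bases after the start of a gene (GRCm38.p6), and 254 of the 305 genes had one, 10 of them among the 14 genes of this cluster. Stretches of 120 bases are shown for 4 genes of the cluster that share a motif and for Zfp933, which stands at the edge of the cluster and lacks it. Capitals mark TATTGGGCG, a motif chosen after the sequences had been viewed.
Zfp600, chr4:146156707-146156826, plus strand: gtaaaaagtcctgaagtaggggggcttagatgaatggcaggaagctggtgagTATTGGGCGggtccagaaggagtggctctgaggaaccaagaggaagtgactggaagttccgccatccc
Zfp979, chr4:147642509-147642628, minus strand: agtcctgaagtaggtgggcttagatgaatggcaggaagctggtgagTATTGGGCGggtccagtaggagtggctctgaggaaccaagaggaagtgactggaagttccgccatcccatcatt
Zfp981, chr4:146514800-146514919, plus strand: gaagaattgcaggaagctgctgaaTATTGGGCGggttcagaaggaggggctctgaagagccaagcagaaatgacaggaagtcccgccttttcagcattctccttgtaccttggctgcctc
Zfp988, chr4:147305484-147305603, plus strand: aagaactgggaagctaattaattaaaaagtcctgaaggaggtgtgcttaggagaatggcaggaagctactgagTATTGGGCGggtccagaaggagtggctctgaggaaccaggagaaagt
Zfp933, chr4:147848419-147848538, minus strand: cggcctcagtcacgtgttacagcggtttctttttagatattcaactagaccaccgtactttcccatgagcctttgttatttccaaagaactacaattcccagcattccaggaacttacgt
The motif, searched on both strands, was present in 9 of the 10 promoters of the cluster and in 34 of 27025 promoters of all genes (0.126%). Among the 254 Zfp promoters it was found in those 9 alone (3.54%). The 36 pairs that these 9 promoters make were 67.6 to 96.0% identical, with a median of 78.8%, whereas Zfp933 was 49.2 to 53.6% identical to them. Where a gene had several entries, the entry most like the other promoters of the cluster was used. Pairs of promoters from Zfp genes outside the cluster had a median identity of 49.2%, with a range of 3.6 to 96.8%. Shorter sequences that overlap the motif were also counted alone. ATTGG, which lies within it, stood in 53.1% of the Zfp promoters and 41.1% of all promoters. GGGCGG, which runs past its end, stood in 49.2% and 38.2%. A match of letters is a description and not a binding site.

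The 305 genes were divided by their coding sequence. A KRAB box was found in 189 and none in 116, and 11 carried a SCAN domain, a module for pairing between such proteins. The median number of fingers was 12 in the genes with a KRAB box and 7 in those without. Measured per length, as CPM divided by the counted length in kilobases (RPKM), the median level in ESC total RNA was 7.99 for the KRAB genes, 15.9 for the genes without the box and 22.7 for genes that are no Zfp gene. The highest levels in ESCs belonged to Zfp57, a KRAB protein that keeps methylation at imprinted regions, with 230.8 ± 1.49 RPKM (SD, n = 3), and to Zfp106, an RNA-binding protein, with 194 ± 2.56 RPKM. Zfp207, a protein of the mitotic spindle and of splicing, had 145 ± 1.88 RPKM, Zfp568, a KRAB repressor of a placental Igf2 transcript, had 133 ± 2.86 RPKM, and Zfp961 had 85.9 ± 2.41 RPKM. The SDs of neighbours in this order did not overlap. In EpiLC total RNA Zfp106 stood at 177 ± 3.09 RPKM, Zfp207 at 155 ± 4.50 RPKM and Zfp568 at 121 ± 7.93 RPKM. Zfp57, at 48.8 ± 1.31 RPKM, and Zfp961, at 46.1 ± 4.83 RPKM, were there within each other's spread.

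To ask how Zfp mRNAs changed in the transition, total RNA of EpiLCs was compared with that of ESCs. A gene was called when its limma adjusted p was below 0.05 over all 11750 genes and its log2 fold change was beyond 1 in either direction. By this rule 22 Zfp genes rose (7.21%, against 14.6% of all genes) and 31 fell (10.2%, against 9.7% of all genes), and the median change was -0.01 against 0.03 for all genes. The genes with and without a KRAB box were counted apart. Of the 189 KRAB genes, 6 rose (3.17%) and 28 fell (14.8%), with a median change of -0.25, and 16 of the 116 other genes rose (13.8%, near the share of all genes) and 3 fell (2.59%), with a median of 0.19. Between same-numbered ESC and EpiLC libraries the median lay between -0.28 and -0.21 for the KRAB genes and between 0.17 and 0.19 for the others. With 10 counts required in every library, the median was -0.11 for the 119 KRAB genes left, of which 1 rose and 8 fell, and 0.08 for the 98 others, of which 7 rose and 3 fell. That fit called 9.87% of all its genes higher and 6.41% lower. Over 20 other settings the median ran from -0.32 to -0.22 for the KRAB genes and from 0.10 to 0.20 for the others. The difference between the classes was not tested. Among genes at 3 CPM or more in all 12 libraries, 2 of 109 KRAB genes rose (1.83%) and 9 fell (8.26%), and 5 of 95 others rose (5.26%) and 3 fell (3.16%), against 7.78% and 5.92% of all 9153 genes at that level. Genes with at least 90% of 28-nucleotide windows found once were also counted. Among 104 such KRAB genes 3 rose (2.88%) and 8 fell (7.69%), with a median of -0.16. Among 110 such others 16 rose (14.5%) and 3 fell (2.73%), with a median of 0.19. The shares of all genes were 14.6% and 9.7%.

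**Figure D1:**
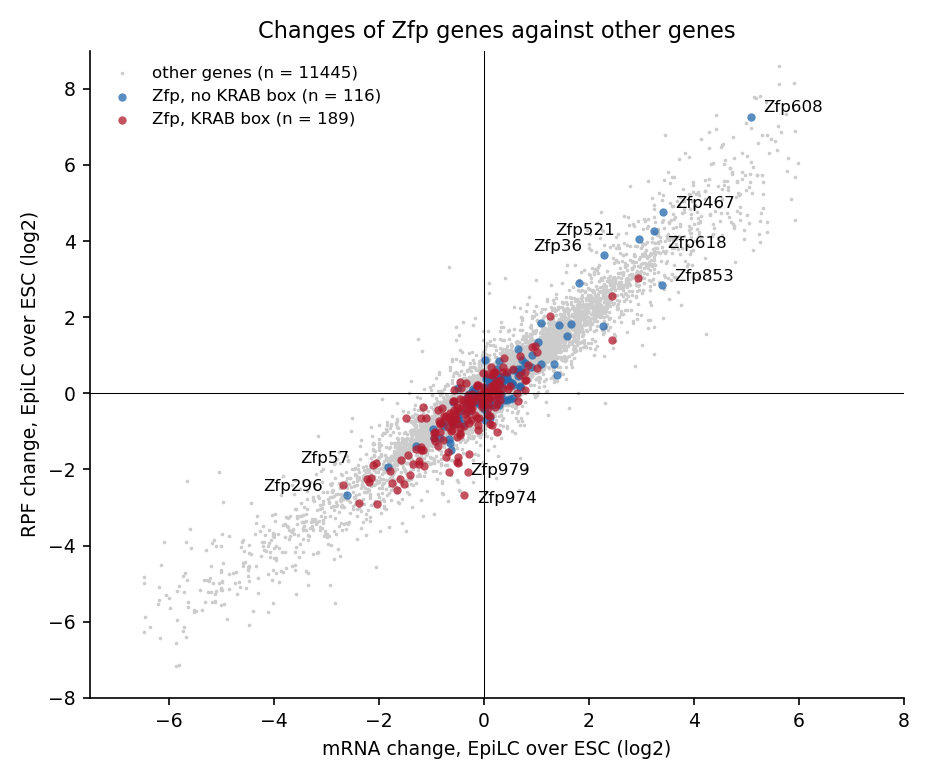
Change of each gene from ESCs to EpiLCs, with the log2 fold change in total RNA on the x axis and in RPFs on the y axis. Red points are the 189 Zfp genes with a KRAB box, blue points the 116 without it, and grey points the 11445 other genes tested. Zfp608 is the highest Zfp gene on both axes, at 5.08 and 7.27. The labelled Zfp979 and Zfp974 have RPF changes well below their total RNA changes, and so has Zfp583, which is not labelled.

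In share of all counts, the KRAB genes made 0.466 to 0.468% of ESC total RNA. Their share of EpiLC total RNA was 0.375, 0.403 and 0.401%. All of the EpiLC values were below the ESC values. In RPFs they made 0.317, 0.316 and 0.298% of counts in ESCs and 0.237, 0.225 and 0.247% in EpiLCs, again without overlap. The genes without the box made 0.661 to 0.670% of ESC and 0.694 to 0.712% of EpiLC total RNA. Their RPF shares were 0.427, 0.417 and 0.399% in ESCs and 0.424, 0.411 and 0.417% in EpiLCs, and the groups overlapped.

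The largest falls included KRAB repressors and a factor of the naive network. Zfp57 stood at 284, 280.1 and 282 CPM in ESC total RNA and at 61.4, 58.3 and 59.1 CPM in EpiLC total RNA. The ESC libraries were all far above the EpiLC libraries, and the mRNA fell by 2.23 ± 0.08 (SE) on the log2 scale (adjusted p = 7.72e-18). Zfp296, a factor of reprogramming and of the naive network that has no KRAB box, measured 55.6, 46.3 and 52.0 CPM in ESCs and 8.67, 8.72 and 7.46 CPM in EpiLCs. It fell by 2.62 ± 0.15 (adjusted p = 7.32e-14), and again the groups were far apart. Zfp819, a KRAB gene tied to repression of retroelements, had 34.2, 31.9 and 37.9 CPM in ESCs and 8.19, 7.11 and 9.21 CPM in EpiLCs. It fell by 2.06 ± 0.16 (adjusted p = 4.32e-11). Zfp229, another KRAB gene, measured 113, 106 and 103 CPM in ESCs and 21.3, 23.4 and 27.1 CPM in EpiLCs, a fall of 2.20 ± 0.14 (adjusted p = 6.44e-13). Every ESC library of both lay above every EpiLC library. In the 4 genes named so far at least 93.8% of windows occurred nowhere else. Zfp59 was read through fewer positions and passed the minimum in ESC libraries alone. This KRAB gene had 14.6, 14.5 and 16.8 CPM in ESCs and 2.05, 2.91 and 2.45 CPM in EpiLCs, a change of -2.69 ± 0.25, and 19.9% of its windows were found once. For Zfp600, with 8.79% such windows, the values were 12.6, 9.04 and 10.7 CPM in ESCs and 1.57, 2.10 and 3.03 CPM in EpiLCs. Its fall was 2.38 ± 0.38, and it needed the ESC libraries to pass the minimum. The groups of both genes were apart, though reads of near-identical copies cannot be assigned among them, so these levels are uncertain. Of the 31 genes that fell, 11 had 90% or more of windows found once.

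The largest rises were in genes without a KRAB box that stood at 5.51 CPM or less in every ESC total RNA library. Zfp608, a large protein with a single classical finger, measured 0.816, 5.51 and 2.26 CPM in ESC total RNA and 71.1, 74.97 and 69.5 CPM in EpiLC total RNA. The ESC libraries differed among themselves but all lay far below the EpiLC libraries, a change of 5.08 ± 0.38. For Zfp467, values were 0.445, 1.21 and 0.609 CPM in ESCs and 7.92, 9.05 and 6.30 CPM in EpiLCs, a change of 3.41 ± 0.43. Zfp853 had 0.148, 1.46 and 0.522 CPM in ESCs and 5.25, 5.66 and 5.48 CPM in EpiLCs, a change of 3.39 ± 0.49. In all 3 genes ESC replicate 2 was the highest ESC library, and the groups did not overlap. Zfp467, Zfp853 and the next gene, Zfp618, passed the minimum through EpiLC libraries alone, so a higher EpiLC level was a condition of their inclusion. Zfp608 and Zfp521 had fewer than 3 ESC libraries at 3 CPM and also needed the EpiLC libraries to pass. Zfp618 measured 1.26, 2.84 and 2.18 CPM in ESCs and 17.3, 17.9 and 22.2 CPM in EpiLCs, a change of 3.25 ± 0.32. Zfp521, a regulator of neural and blood progenitors, had 2.97, 3.87 and 3.39 CPM in ESCs and 27.3, 28.4 and 23.4 CPM in EpiLCs, a change of 2.95 ± 0.23. No ESC library of either gene reached the EpiLC libraries. KRAB genes were among the risers too. Zfp334 had 6.53, 8.09 and 6.27 CPM in ESCs and 38.0, 35.7 and 39.1 CPM in EpiLCs, a rise of 2.45 ± 0.15 (adjusted p = 2.03e-13), and Zfp677, which passed through EpiLC libraries alone, changed by 2.93. The other 4 KRAB genes called higher were Zfp946, Zfp287 (also through EpiLC libraries alone), Zfp647 and Zfp54, with changes of 2.44, 1.26, 1.02 and 1.01.

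**Figure D2:**
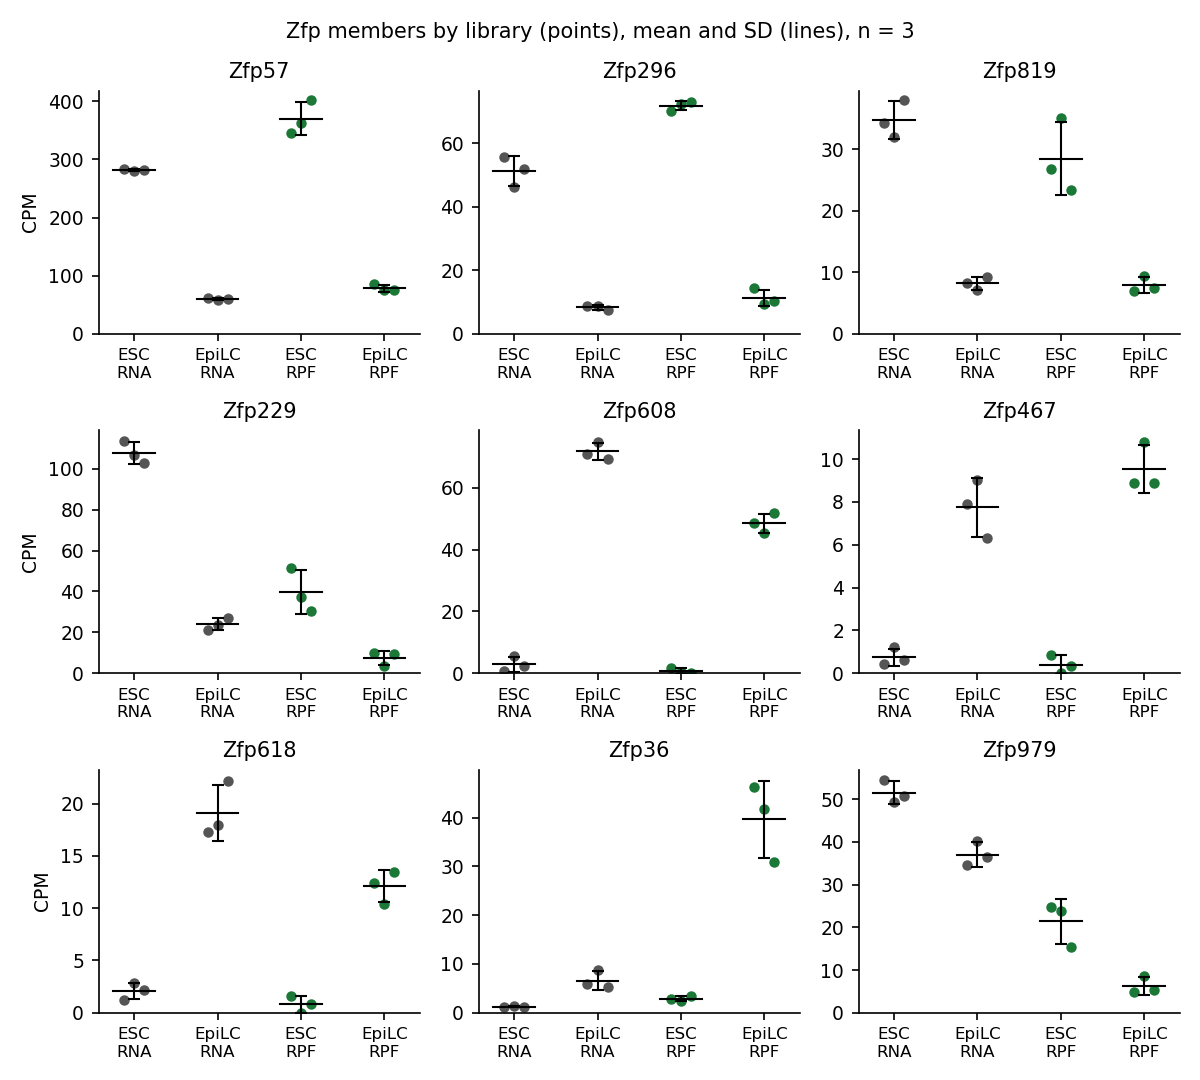
Level of 9 Zfp genes in each of the 12 libraries, in CPM on axes that start at 0, with each point 1 library of total RNA (grey) or RPFs (green) and lines for the mean and SD of 3 libraries. Zfp57, Zfp296, Zfp819 and Zfp229 are lower in every EpiLC library, Zfp608, Zfp467, Zfp618 and Zfp36 are higher in every EpiLC library, and Zfp979 falls from at least 15.4 to at most 8.58 CPM in RPFs.

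By role, the 8 listed repressors of imprinted loci and retroelements all passed the minimum, and Zfp57 and Zfp819 fell. Zfp568 was among the 6 that were not called. Its ESC total RNA measured 255.1, 263 and 266 CPM and its EpiLC total RNA 243, 220.4 and 250.2 CPM. The groups lay close to each other, with a change of -0.13 ± 0.07 (adjusted p = 0.0962). Zfp809, which targets a leukemia virus primer site and silences related retroviruses, changed by -0.59 ± 0.11 (adjusted p = 2.45e-05), short of the fold limit. Its 3 EpiLC libraries, at 20.6, 23.3 and 21.3 CPM, were below its 3 ESC libraries, at 33.4, 31.2 and 32.3 CPM. Zfp445, a second protector of imprints, changed by 0.13 (adjusted p = 0.0921), and Zfp708, Zfp932 and Zfp638 by -0.12, 0.27 and -0.09.

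Among factors linked to pluripotency 6 of 7 were tested, and Zfp296 alone was called. Zfp706 reached at most 0.969 CPM in any library and was not tested. Zfp281 and Zfp143, both transcription factors active in stem cells, changed by -0.01 and -0.26, and Zfp462 and Zfp219 by 0.71 and 0.65, all within the fold limit. Of 7 developmental regulators 4 passed the minimum, and 3 of them were called higher, in a comparison that called 14.6% of all genes higher. The same minimum removed the other 3, and Zfp711 met it through EpiLC libraries alone. Zfp423, a regulator of neural and adipose progenitors, measured 16.1, 20.7 and 16.2 CPM in ESC and 60.7, 54.3 and 48.4 CPM in EpiLC total RNA, a rise of 1.65 ± 0.12 (adjusted p = 1.25e-11). With Zfp521, described above, and Zfp711, an X-linked gene with a change of 1.34 ± 0.32, it moved alongside the summed markers of other cell types, which made 15.3 to 19.3 CPM in ESC and 33.7 to 41.7 CPM in EpiLC total RNA. The part of those markers in the 3 changes was not tested. The untested Zfp503 stayed below 1 CPM, at up to 0.924, and Zfp703 and Zfp536 reached 3 CPM in 1 and 2 libraries.

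The 11 listed factors of RNA, ribosomes and ubiquitin held 1 riser, Zfp36, which encodes tristetraprolin, a protein that binds AU-rich mRNAs and speeds their decay. Its total RNA measured 1.11, 1.38 and 1.22 CPM in ESCs and 5.87, 8.72 and 5.25 CPM in EpiLCs. No ESC library reached the lowest EpiLC library, a change of 2.30 ± 0.37. Zfp36 needed the EpiLC libraries to pass the minimum. Zfp326 changed by 0.79 (adjusted p = 7.74e-07), and Zfp598, a sensor of collided ribosomes, by -0.35. Among the 6 chromatin complex subunits, Zfp644, a partner of the G9a methyltransferases, rose by 1.08 ± 0.07 (adjusted p = 5.66e-13), from 111, 126 and 114 CPM to 227, 259 and 262 CPM. Its 5 companions were not called.

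In RPFs, the comparison of EpiLCs with ESCs called 21 Zfp genes higher (6.89%, against 15.4% of all genes) and 46 lower (15.1%, against 10.6%), with a median of -0.15 against 0.01 for all genes. Both assays called 17 genes higher and 25 lower, and no gene was called in opposite directions. Another 21 genes passed the threshold for a fall in RPFs and not in total RNA, and 6 the reverse, which does not show that the assays differed: Zfp961, with -0.93 in total RNA and -1.01 in RPFs, is among the 21. The RPFs of KRAB genes had a median change of -0.36, with 6 higher and 38 lower, and those of the others a median of 0.15, with 15 higher and 8 lower. Zfp57 RPFs measured 345, 363 and 401 CPM in ESCs and 85.5, 74.6 and 75.2 CPM in EpiLCs. They fell by 2.26 ± 0.09 (adjusted p = 1.37e-16), close to the change of its mRNA. Zfp608 RPFs measured 1.86, 0.419 and 0 CPM in ESCs and 48.5, 45.5 and 51.7 CPM in EpiLCs, a change of 7.27 ± 0.85. With so few ESC counts the size of this fold depends on the 0.5 counts added before the logarithm. The RPF change was 4.75 ± 0.61 for Zfp467, from at most 0.869 CPM to at least 8.87 CPM, and 4.26 ± 0.62 for Zfp618, from at most 1.61 to at least 10.4 CPM.

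The largest falls in RPFs were in KRAB genes with few counts. Zfp97 RPFs measured 1.61, 0.837 and 2.29 CPM in ESCs and 0.620, 0 and 0 CPM in EpiLCs. All 3 EpiLC counts came from 1 library, and the pooled ratio of ESC to EpiLC was 7.66, with an exact 95% counting interval of 2.45 to 38.6. Zfp600 RPFs fell by 2.88 ± 0.78, from 6.83, 4.40 and 3.17 CPM to 0.826, 2.98 and 0 CPM. Over 21 other settings this change ran from -3.96 to -1.6. For Zfp974 the ESC values were 3.35, 2.30 and 1.32 CPM and the EpiLC values 0.206, 0 and 0.554 CPM, a pooled ratio of 7.09 with an interval of 2.61 to 27. The groups did not overlap in any of the 3 genes. These intervals cover counting error only.

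Translational efficiency (TE), the ratio of RPFs to total RNA, was compared between the cell types through the interaction of assay and cell type. It rose in 0 Zfp genes (against 0.136% of all genes) and fell in 1 (0.328%, against 0.119%), with a median change of -0.09 against 0.01. At an unadjusted p below 0.05, limma placed 7 Zfp genes higher (2.3%, against 6.89% of all genes) and 27 lower (8.85%, against 7.02%). The edgeR quasi-likelihood test called 0 higher and 1 lower, with 6 and 36 at an unadjusted p below 0.05 (1.97 and 11.8%, against 7.23 and 7.46% of all genes), and DESeq2 called Zfp36 higher and Zfp583 and Zfp979 lower, with 6 and 36 (against 7.4 and 6.39% of all genes). The gene called by all 3 was Zfp979, a KRAB gene of the chromosome 4 cluster. Its total RNA measured 54.4, 49.3 and 50.7 CPM in ESCs and 34.5, 40.1 and 36.5 CPM in EpiLCs, a change of -0.50 ± 0.11. Its RPFs measured 24.8, 23.9 and 15.4 CPM in ESCs and 4.75, 8.58 and 5.36 CPM in EpiLCs, a fall of 1.82 ± 0.30 (adjusted p = 9.92e-06). The groups did not overlap in either assay, and the RPFs fell further than the mRNA, so that TE fell by 1.32 ± 0.32 (adjusted p = 0.0382). Of its windows, 51.1% of those of 28 nucleotides and 73.3% of those of 50 nucleotides were found once. Over 22 other settings the change ran from -1.58 to -1.09 and the adjusted p from 0.000242 to 0.125. The call was lost on leaving out any of the EpiLC RPF libraries, ESC RPF replicate 1 or 2, or total RNA replicate 2 or 3 of either cell type. Zfp36 went the other way. Its RPFs measured 2.73, 2.51 and 3.43 CPM in ESCs and 46.2, 41.8 and 30.9 CPM in EpiLCs, without overlap. This was a change of 3.63 ± 0.29, but its TE change of 1.33 ± 0.47 was not called by limma (adjusted p = 0.172). The TE change of Zfp974 was -2.30 (adjusted p = 0.114), and that of Zfp583 was -1.75 (adjusted p = 0.113).

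Within each cell type, RPFs were then compared with total RNA, to place the Zfp genes among all genes by ribosome footprints per mRNA. Since each library was scaled to its own total, the ratio is relative to the average gene. In ESCs 4 Zfp genes had a higher ratio (1.31%, against 7.93% of all genes) and 113 a lower one (37.0%, against 13.5%), with a median log2 ratio of -0.70 against -0.02. In EpiLCs 3 were higher (0.984%, against 9.39%) and 123 lower (40.3%, against 14.4%), with a median of -0.78 against -0.01. Both cell types called 98 of them lower. These counts include the 21 genes that passed the minimum through total RNA libraries alone, and Zfp580, which passed through RPF libraries alone. Among the 204 genes at 3 CPM or more in all 12 libraries, 53 were lower in ESCs (26%, against 11.2% of the 9153 genes at that level), with a median of -0.54, and 63 were lower in EpiLCs (30.9%, against 12.4%), with a median of -0.58. The Zfp genes together made 1.13 to 1.14% of ESC total RNA counts but 0.698 to 0.745% of ESC RPF counts, and 1.07 to 1.12% against 0.636 to 0.664% in EpiLCs. Both classes were on the low side. In ESCs 78 of 189 KRAB genes were lower (41.3%), with a median of -0.79, as were 35 of 116 others (30.2%), with a median of -0.49. In EpiLCs 91 KRAB genes (48.1%) and 32 others (27.6%) were lower.

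**Figure D3:**
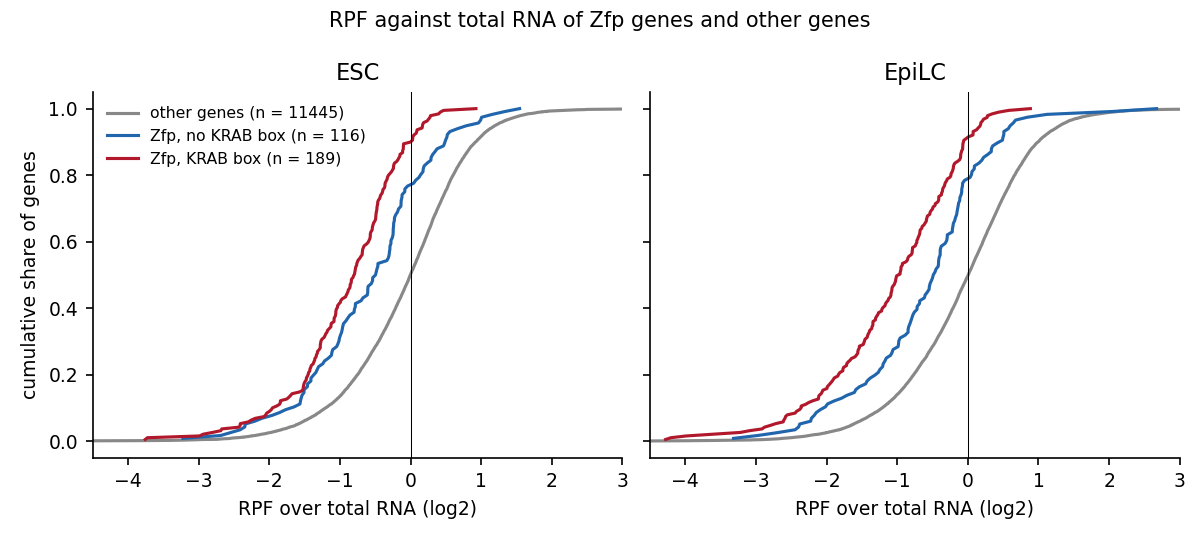
Cumulative share of genes by log2 ratio of RPFs to total RNA, in ESCs on the left and EpiLCs on the right, for the 189 KRAB genes, the 116 other Zfp genes and all other genes tested. Both Zfp curves lie left of the other genes, with medians of -0.79 and -0.49 in ESCs and -0.96 and -0.48 in EpiLCs.

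The 5 lowest ratios in ESCs belonged to genes that passed the minimum through total RNA libraries alone, so few footprints were a condition of that, and their values are a description. Zfp992 measured 8.09, 8.35 and 6.27 CPM in total RNA and 0.869, 0.209 and 0.440 CPM in RPFs, a log2 ratio of -3.76 ± 0.54. Zfp932, which represses retroviral elements, measured 8.98, 8.61 and 6.61 CPM against 0.869, 0.837 and 0.264 CPM, a ratio of -3.73 ± 0.54. The assays were far apart for both genes, in which 6.38 and 21.2% of windows were found once. Zfp420 was different in this respect, with 97.7% of windows found once. It measured 15.4, 13.4 and 13.9 CPM in total RNA and 1.61, 1.68 and 1.14 CPM in RPFs, a ratio of -3.22 ± 0.34. Zfp980 and Zfp988 followed, at -2.99 and -2.94. Once the trend with GC content was removed, the order changed: Zfp420 stood at -2.98, Zfp932 at -2.56, Zfp992 at -2.55, Zfp980 at -2.002 and Zfp988 at -1.73. A well covered case was Zfp106, with 1086, 1079 and 1107 CPM in total RNA and 364, 354 and 348 CPM in RPFs, a ratio of -1.55 ± 0.05 (adjusted p = 1.4e-18), or -1.39 with the GC trend removed. Zfp445 had 171, 165 and 171 CPM in total RNA and 78.3, 82.7 and 65.0 CPM in RPFs, a ratio of -1.13 ± 0.08 (adjusted p = 7.23e-12), but with the GC trend removed it was -0.79 and no longer called.

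The 4 genes with a higher ratio in ESCs had no KRAB box. Zfp580 measured 2.00, 0.774 and 0.870 CPM in total RNA and 3.48, 3.77 and 2.82 CPM in RPFs, a ratio of 1.54 ± 0.39. It passed the minimum through RPF libraries alone, so a high ratio was a condition of its inclusion and its values are a description. Zfp36 had a ratio of 1.34 ± 0.42 in ESCs (adjusted p = 0.00718) and 2.67 ± 0.20 in EpiLCs (adjusted p = 1.61e-11). Zfp414 measured 12.2, 9.47 and 11.8 CPM in ESC total RNA and 24.0, 22.6 and 23.9 CPM in ESC RPFs, a ratio of 1.16 ± 0.15 (adjusted p = 1.99e-07). In these genes every RPF library lay above every total RNA library of ESCs. The 3 were called higher in EpiLCs as well. Zfp319 had a ratio of 1.01 ± 0.24 in ESCs (adjusted p = 0.000578), with 0.94 to 0.98 and no call on leaving out ESC RPF replicate 2 or ESC total RNA replicate 2 or 3, and 0.49 in EpiLCs, and Zfp444, the fifth in order, stood at 0.99 in ESCs, just inside the fold limit. The repressors Zfp57 and Zfp568 had ratios near or above the average gene, at 0.47 and 0.09.

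The ratio was also read by number of fingers, as a description with no test. In genes with 0 to 5 fingers the median ESC ratio was -0.24 (57 genes), with 6 to 10 fingers it was -0.53 (86 genes), with 11 to 15 it was -0.88 (107 genes), and with 16 to 33 it was -0.92 (55 genes). Genes with more fingers were also poorer in GC, with a median of 53.7% in the first group and 43.8% in the last, and held more sequence found at more than 1 place. In genes with 90% or more of windows found once, the medians were -0.24, -0.44, -0.58 and -0.85. After removal of the GC trend of each library they were -0.17, -0.32, -0.43 and -0.48 over all genes of each group. In ESCs the order of the 4 groups was the same in both. In EpiLCs the medians were -0.16, -0.58, -0.95 and -1.10 as counted, but with the GC trend removed they were -0.15, -0.45, -0.44 and -0.62, so that the middle groups no longer followed the number of fingers.

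**Figure D4:**
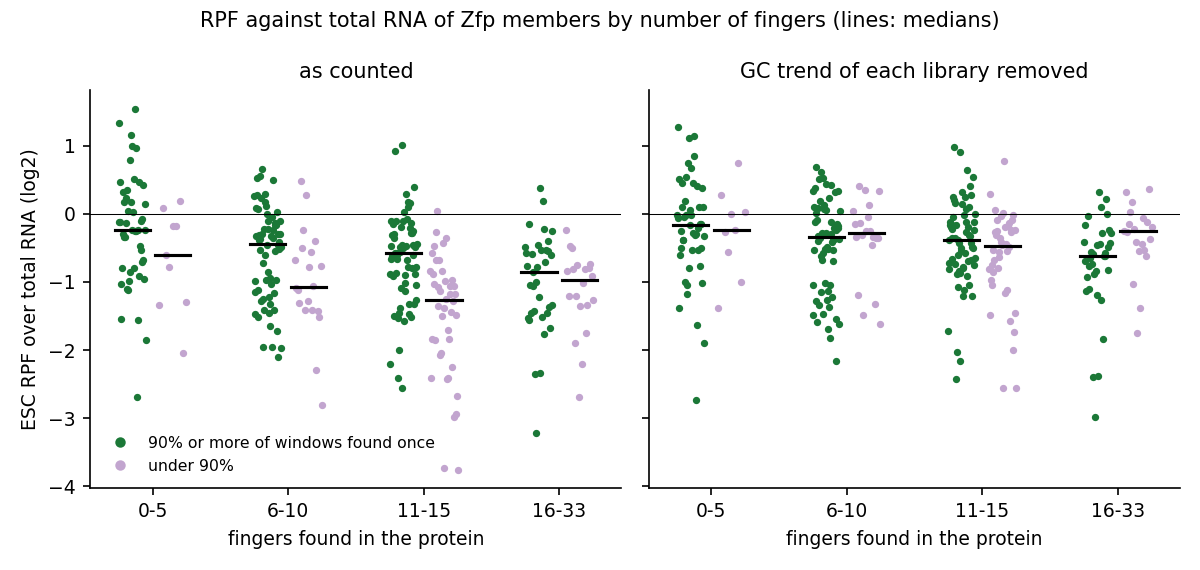
Log2 ratio of RPFs to total RNA in ESCs by number of zinc fingers, as counted and with the GC trend of each library removed, for genes with 90% or more of 28-nucleotide windows found once and for the rest. Each point is a gene and lines mark medians, which in the first set fall from -0.24 at 0 to 5 fingers to -0.85 at 16 to 33 fingers as counted, while in the rest, with the GC trend removed, they do not follow the number of fingers.

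Sequence found at more than 1 place moved with the ratio too. The 37 genes with under 50% of 28-nucleotide windows found once had a median ESC ratio of -1.28, the 54 genes with 50 to 90% a median of -0.95, the 84 genes with 90 to 99% a median of -0.59, and the 130 genes with 99% or more a median of -0.46. RPF reads were 26 to 32 nucleotides long and total RNA reads were longer, so fewer positions could take an RPF read: in the first of these groups 52.9% of 50-nucleotide windows were found once. In the 104 KRAB genes with 90% or more, the median ESC ratio was -0.53, and 27 were lower (26%). In the 110 others with 90% or more it was -0.48, and 33 were lower (30%), against 13.5% of all genes. In EpiLCs 33 of these KRAB genes (31.7%) and 30 of the others (27.3%) were lower, against 14.4% of all genes. GC content had a median of 43.2% in KRAB genes, 54.4% in other Zfp genes and 53.4% in genes that are no Zfp gene. With the GC trend removed the median ESC ratio was -0.29 for KRAB genes, with 29 lower, and -0.42 for the others, with 30 lower, in a fit that called 11.6% of all genes lower, so the order of the classes turned. In EpiLCs the medians were -0.39 and -0.48. Within the middle range of GC, the 153 Zfp genes had a median ESC ratio of -0.61, and 46 were lower, against -0.07 for 6201 other genes, of which 874 (14.1%) were lower. Beyond these values the part of GC and of shared sequence in the ratios was not tested.

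The genes were also described by position in the genome. Runs of at least 3 Zfp genes with gaps of at most 1 Mb formed 25 clusters on 12 chromosomes, which held 184 of the genes, 150 of them with a KRAB box, against 39 of the 121 outside, so that position and the KRAB box go together, and their parts were not tested. Inside clusters 9 genes rose (4.89%) and 25 fell (13.6%) in total RNA, with a median of -0.19, and outside them 13 rose (10.7%) and 6 fell (4.96%), with a median of 0.09, against 14.6% and 9.7% of all genes. The difference was not tested. In the cluster at chr4:145534831-147828754 all 14 genes had a KRAB box and all 14 changes were below 0, from -2.38 to -0.50 with a median of -1.01, and 7 genes fell. Their summed total RNA was 369, 355 and 355 CPM in ESCs and 157, 196 and 192 CPM in EpiLCs. Their summed RPFs were 147, 149 and 106 CPM in ESCs and 43.4, 48.5 and 53.6 CPM in EpiLCs. The EpiLC sums were below the ESC sums in both assays without overlap. In the genes of this cluster a median of 17.3% of windows was found once, and linker windows shared among them are shown above. The sum of a cluster does not depend on how reads are split among its own copies, but reads with several places were discarded. The best expressed, Zfp990, measured 105, 98.5 and 102 CPM in ESC and 40.5, 49.6 and 52.6 CPM in EpiLC total RNA, a fall of 1.14 ± 0.09 (adjusted p = 9.91e-11).

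**Figure D5:**
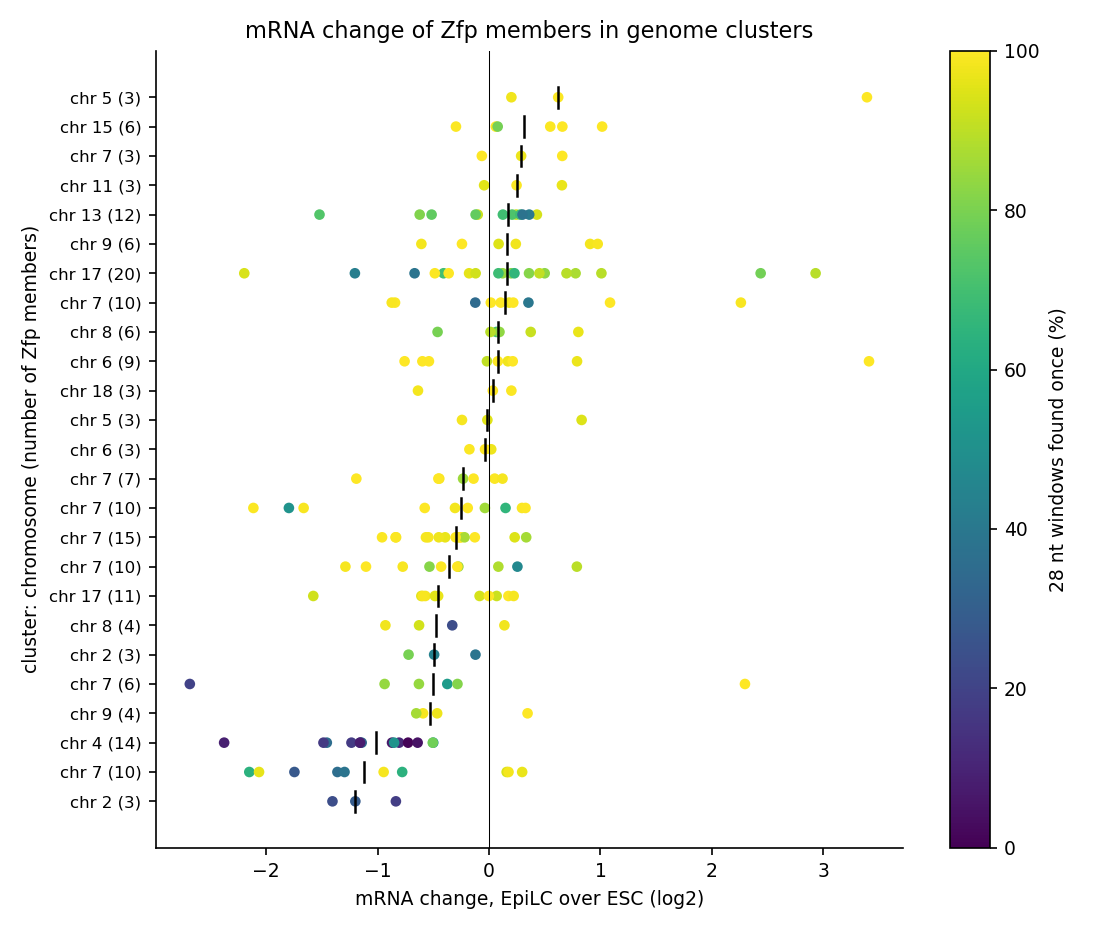
Log2 change in total RNA from ESCs to EpiLCs for the Zfp genes of 25 genome clusters, 1 row a cluster in order of the median (black tick) and 1 point a gene, coloured by the percent of 28-nucleotide windows found once. The 14 genes of the chromosome 4 cluster all lie below 0, while the chromosome 17 cluster of 20 genes spans -2.20 to 2.93.

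Other clusters differed. At chr7:41643415-43617918, which holds Zfp819, 5 of 10 KRAB genes fell and the median was -1.12, and the summed total RNA went from 248, 242 and 254 CPM in ESCs to 137, 154 and 162 CPM in EpiLCs. At chr2:177473328-178069907, 2 of 3 genes fell, with a median of -1.20 and 18 to 28.6% of windows found once. By contrast the 20 KRAB genes at chr17:21020102-23585449 had a median change of 0.16, with 3 risers, 2 genes that fell and a range from -2.20 to 2.93. Their summed total RNA was 399, 391 and 376 CPM in ESCs and 328, 377 and 383 CPM in EpiLCs, and the groups overlapped. The cluster includes Zfp229, which fell, and Zfp677, which rose, and 8 genes outside chromosome 4 that carry the most widely shared window of the chromosome 4 genes lie on chromosome 17. In the 15 genes at chr7:29775350-30162570, which include Zfp568 and Zfp420, all changes in total RNA lay between -0.96 and 0.33, within the fold limit.

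The partners that KRAB boxes act through are not Zfp genes and were listed apart. Of 12 such corepressors and cofactors, 1 rose and 1 fell in total RNA, where 14.6% of all genes were called higher and 9.7% lower. In RPFs, where 15.4% and 10.6% of all genes were called, all 12 changes lay between -0.95 and 0.91, within the fold limit. The ends of that range are Uhrf1 and Chd3, the genes called in total RNA. The missed calls in RPFs do not show that the assays differed. Chd3, a remodeller of the NuRD complex, rose by 1.10 ± 0.08 (adjusted p = 5.66e-12), and Uhrf1, which guides maintenance of DNA methylation, fell by 1.22 ± 0.05 (adjusted p = 3.08e-16). Trim28, the direct partner of the KRAB box, changed by -0.58 ± 0.05 (adjusted p = 4.65e-11) and Setdb1, the histone methyltransferase it recruits, by -0.33 ± 0.06 (adjusted p = 5.5e-05), both short of the fold limit.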

How the data were processed

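Total RNA and RPF libraries of ESCs and EpiLCs (3 each) were made by the authors with the TruSeq Ribosome Profiling kit and read as 50-base single ends. Per the labels and the study's methods, the authors trimmed with cutadapt 1.14, keeping RPFs of 26 to 32 nucleotides, mapped with STAR 2.5.3a to mm10 with Gencode M14, kept reads with a single place, and deposited raw counts per gene from featureCounts 1.5.3, on the sense strand, over coding sequence without its first 45 nucleotides. Reads carried no molecular identifiers. Genes with 3 CPM in 3 libraries were fitted with limma-voom (R 4.3.3, limma 3.58.1, edgeR 4.0.16 for TMM factors, 0.5 counts added), with the 4 groups as levels of 1 linear model over all 12 libraries and Benjamini-Hochberg adjustment over 11750 genes, and the Zfp genes were read from that fit. The fit was tested on simulated counts with known changes, and the finger and linker patterns on a made-up peptide. The other steps were not tested in this way.

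Symbols could not be matched for 77 of 22462 rows. Fingers and the KRAB and SCAN domains were found in translated Gencode M21 coding sequences, the domains with profiles at an E-value below 0.0001, and shared windows were counted among all M21 transcripts, not the genome. A window counted as shared if it occurred at any second place, also within its own gene. Of the genes, 7 (Zfp566, Zfp595, Zfp653, Zfp865, Zfp866, Zfp87 and Zfp963) share counted bases with another gene on the same strand. Same-numbered libraries of the 2 cell types did not deviate together within an assay (correlations of -0.02 to 0.04). The paper describes the total RNA as matched to the RPFs. Between same-numbered RPF and total RNA libraries the correlations were -0.174, 0.093 and 0.0915 in ESCs and 0.122, -0.0174 and 0.045 in EpiLCs. The main fit used no replicate block, and fits with a block are given below. Libraries of 1 group differed by more than sampling noise, with a chi-square per degree of freedom of 2.51 to 7.75. The genes, lists and rules were chosen with earlier results of these data known. Genes named were those of the role lists, the largest called changes with 1 sign in all same-numbered pairs, the extremes of ratio and level, and genes next to the minimum, and Zfp334, Zfp677, Zfp946, Zfp287, Zfp647, Zfp54, Zfp583 and Zfp990 were added after their values were seen.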

Additional observations from a re-analysis of the deposited data

Results flagged for a closer look

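The TE change of Zfp979 was marked because the change from ESCs to EpiLCs differed between the RPF and total RNA libraries by a test of the difference itself: -1.32 on the log2 scale, with a limma adjusted p of 0.0382 over all 11750 genes. The fall was -1.82 in RPFs and -0.50 in total RNA. TE was lower in all 3 same-numbered pairs. With 51.1% of 28-nucleotide and 73.3% of 50-nucleotide windows found once, fewer of its positions could take an RPF read than a total RNA read. With the GC trend of each library removed the change was -1.09.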

How the results depend on the processing

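Of 340 counts and medians set against an alternative, 290 moved little and 50 moved. The median change in total RNA, near 0 and not a call, was above 0 in 2 settings, at 0.0053 with 10 counts required and 0.042 in genes with 90% or more of windows found once, and the order of the KRAB and other genes by ESC ratio turned under GC correction. For total RNA, the median change was -0.049 with DESeq2 size factors, -0.063 with each culture as a replicate block, -0.10 after GC correction and 0.042 in the 214 genes with 90% or more of windows found once, where 11 fell. With 10 counts required in every library, 217 Zfp genes were left, of which 8 rose and 11 fell in total RNA and 8 rose and 20 fell in RPFs. For that minimum the ratio of RPFs to total RNA was lower in 58 genes in ESCs (median -0.55) and 66 in EpiLCs (median -0.59). That fit called 9.87% of all its genes higher and 6.41% lower in total RNA, and 11.2% and 6.88% in RPFs. By ratio it called 11.7% lower in ESCs and 12.1% in EpiLCs. With no fold limit, 71 rose and 105 fell in total RNA, 48 and 80 in RPFs and 1 and 3 in TE. The ratio was higher in 20 and lower in 201 genes in ESCs, and in 16 and 188 in EpiLCs. Of all genes, that setting called 34.6% higher and 30.7% lower in total RNA, 31.1% and 28.7% in RPFs and 0.57% and 0.63% in TE. By ratio it called 33% higher and 34.5% lower in ESCs, and 31.3% and 33% in EpiLCs. In the genes with 90% or more, 20 fell in RPFs (median -0.047), 0 in TE, and the ratio was lower in 60 genes in ESCs (median -0.51) and 63 in EpiLCs (median -0.54). GC correction left 59 genes lower in ESCs (median -0.35), and 5 higher and 57 lower in EpiLCs (median -0.44), and 55 of those called lower in each cell type were shared with the uncorrected fit. The corrected fit called 11.6% of all genes lower in each cell type, and 9.85% higher in EpiLCs. With total counts in place of TMM factors the ESC median was -0.78. The cause of these moves was not tested, apart from the smaller number of genes or the limit removed.

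TE calls were the least stable. DESeq2 gave 1 higher and 2 lower, no filter 0 lower, and each culture as a replicate block 2 lower (Zfp974 and Zfp979). Without 1 library TE calls ranged from 0 to 4 lower. There were 4 without ESC RPF replicate 3, and Zfp979 was lost, with an adjusted p of 0.0611 to 0.125, on leaving out any library other than ESC RPF replicate 3, ESC total RNA replicate 1 or EpiLC total RNA replicate 1. Among calls that survived every such omission were 18 of 22 rises and 27 of 31 falls in total RNA, and 87 of 113 lower ratios in ESCs. The replicate number as a block gave 21 rises and 31 falls in total RNA, 21 and 50 in RPFs, 0 and 1 in TE, and 114 and 124 lower ratios. The labels do not say whether equal numbers mark libraries of 1 culture. Zfp319 fell under the fold limit in 6 settings. Zfp444 was called higher in 9, among them the setting with no fold limit, where it stood at 0.993.

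Planned corrections from genome sequence were not run, and the transcript-based ones were chosen after seeing the data. Depth limits the EpiLC RPFs most, where up to 77 Zfp genes had under 10 counts in a library.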
